A study of Mus musculus with 15 samples.

Results

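A set of 10 genes of leukocyte and myeloid signalling was followed across sorted fractions of differentiating mouse embryonic stem cells: Mpo, Laptm5, Mrc1, Dapp1, Ptpn6, Tyrobp, Fcer1g, Coro1a, Rac2 and Bin2. They are a small part of the 24034 genes in the deposited count table, were picked by symbol, and each had 1 line there. The 15 libraries, of RNA amplified with a Nugen kit, fell into 5 groups of 3 libraries numbered 1 to 3. Every cell carried the bacterial enzyme gene LacZ under control elements of Endoglin (Eng), which encodes a TGF-beta co-receptor (ENG) of endothelium and blood precursors. Cells with a working reporter are called LacZ+, or FDG+ after a substrate of the enzyme that becomes fluorescent. The line with the construct -8/P/+7/+9, which joins the Eng promoter P to 3 enhancers, gave 2 groups of cells with FLK1, the VEGF receptor encoded by Kdr: FLK1+ LacZ- and FLK1+ LacZ+. The line with the construct -8/P, with 1 enhancer, gave 3 groups that the labels name HEI: ENG+FDG-, ENG+FDG+ and ENG-FDG+. The design text places the first line's active cells in FLK1 mesoderm and the second line's in TIE2+ c-KIT+ CD41- cells with hematopoietic potential. The stage of the cells and the reporter line therefore cannot be told apart. Since no label speaks of separate cultures, the p-values capture only how these libraries vary, and that variation may be technical. In sorted bulk cells, fewer cells of a type and less RNA per cell cannot be told apart.

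As background, myeloid cells kill and clear microbes with granule enzymes such as myeloperoxidase, take up glycoproteins through receptors such as the mannose receptor, and sense their surroundings through receptors that pair with small adaptor proteins. Those adaptors carry an ITAM, a tyrosine motif that recruits the kinase Syk once phosphorylated, and phosphatases such as the product of Ptpn6 reverse the signal. The same signals reach lipid kinases, small GTPases and the actin cytoskeleton, where leukocytes use their own versions of widely expressed proteins. In the embryo, blood precursors arise from endothelium.

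The promoters of the 4 genes that were higher in the HEI groups are shown because these 4 carry the main differences described here. Each line gives the 250 bases before the start site in RefSeq, build GRCm38.p6, read 5' to 3' along the gene. The GENCODE M21 annotation, used for exonic lengths, starts Mpo, Laptm5 and Mrc1 inside their windows, at 87793581, 130913125 and 14229392. Parts of those windows thus lie within the genes as annotated there. Capitals mark matches, on either strand, to 3 short motifs, and no match overlapped another. The motifs were GAGGAA, of the PU.1 type of ETS factors, TGTGGT, of RUNX factors, and AGATAA, the letters that GATA factors bind.
Mpo, chr11:87793534-87793783, plus strand: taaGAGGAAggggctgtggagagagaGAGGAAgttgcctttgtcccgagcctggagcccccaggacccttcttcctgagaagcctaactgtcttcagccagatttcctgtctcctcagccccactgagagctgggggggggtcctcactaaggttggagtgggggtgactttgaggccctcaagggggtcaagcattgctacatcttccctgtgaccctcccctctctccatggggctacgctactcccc
Laptm5, chr4:130913066-130913315, plus strand: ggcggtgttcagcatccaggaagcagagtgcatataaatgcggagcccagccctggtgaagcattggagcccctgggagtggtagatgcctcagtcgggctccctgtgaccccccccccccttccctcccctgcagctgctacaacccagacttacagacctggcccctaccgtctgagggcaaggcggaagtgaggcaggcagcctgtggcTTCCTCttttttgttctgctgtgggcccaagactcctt
Mrc1, chr2:14229164-14229413, plus strand: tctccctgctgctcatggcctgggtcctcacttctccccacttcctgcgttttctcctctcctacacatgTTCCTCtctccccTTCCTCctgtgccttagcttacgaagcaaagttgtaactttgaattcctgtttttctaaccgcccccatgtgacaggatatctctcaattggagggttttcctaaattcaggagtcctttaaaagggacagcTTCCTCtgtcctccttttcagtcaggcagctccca
Dapp1, chr3:137981550-137981799, minus strand: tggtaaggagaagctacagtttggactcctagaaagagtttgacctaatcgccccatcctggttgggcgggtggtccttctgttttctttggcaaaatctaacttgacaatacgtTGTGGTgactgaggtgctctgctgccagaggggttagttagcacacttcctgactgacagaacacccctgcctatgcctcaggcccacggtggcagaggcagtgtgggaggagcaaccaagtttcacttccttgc
The Mpo window held 2 ETS matches, at -247 and -224 from the start site, Laptm5 held 1 at -38, and Mrc1 held 3, at -180, -167 and -35. The Laptm5 match lies past the GENCODE start, so within the gene as annotated there, while the Mpo and Mrc1 matches lie before theirs. The Dapp1 window held 1 RUNX match at -135 and none of the others. Among 32851 RefSeq promoter windows of the same length, 23.3% held the ETS letters, 14% the RUNX letters and 9.99% the GATA letters, so matches as such were common. Windows of Coro1a, Fcer1g and Ptpn6 held none of the 3 motifs, and no window of Rac2, Tyrobp or Bin2 was used.

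Library totals ran from 9673396 to 16337785 counts, and levels are given as CPM, the usual count-based unit of edgeR at a common library size, after scaling of the libraries with TMM factors. Replicate 1 was unlike replicates 2 and 3. With replicate number and group in 1 edgeR model, 9604 of 13662 genes tested (70.3%) differed between replicate 1 and replicates 2 and 3. Among the genes described here, Bin2 (log2 2.48 ± 0.49 SE, adjusted p = 0.000471), Coro1a (1.71 ± 0.35, 0.000571), Laptm5 (1.16 ± 0.19, 5.86e-05) and Ptpn6 (0.74 ± 0.23, 0.01) were higher in replicate 1. Mpo, Dapp1, Mrc1 and Rac2 did not pass that test, with log2 differences of -0.05, 0.03, -0.47 and -0.35. Replicate numbers set replicate 1 apart across groups but did not clearly pair replicates 2 and 3. Values with the replicate number as a block in the model are given where they change a call. Pairs below are libraries of the same number. Values from replicates 2 and 3 alone were added after the data had been seen.

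Of the 10 genes, 8 passed the filter on low counts and were tested. Tyrobp and Fcer1g did not pass. In the comparison of the HEI groups with the FLK1+ groups, edgeR called 5 of these 8 genes, beside 37.3% of all genes tested. The 4 genes Mrc1, Laptm5, Mpo and Dapp1 rose, beside 17.0% of all genes, and Coro1a fell, beside 20.3%. Within the HEI groups the ENG-FDG+ fraction had the highest mean of Mpo, Laptm5, Dapp1, Rac2, Bin2, Tyrobp and Fcer1g. Mrc1 was highest in ENG+FDG+ cells, Coro1a in FLK1+ LacZ+ cells and Ptpn6 in FLK1+ LacZ- cells.

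**Figure D1:**
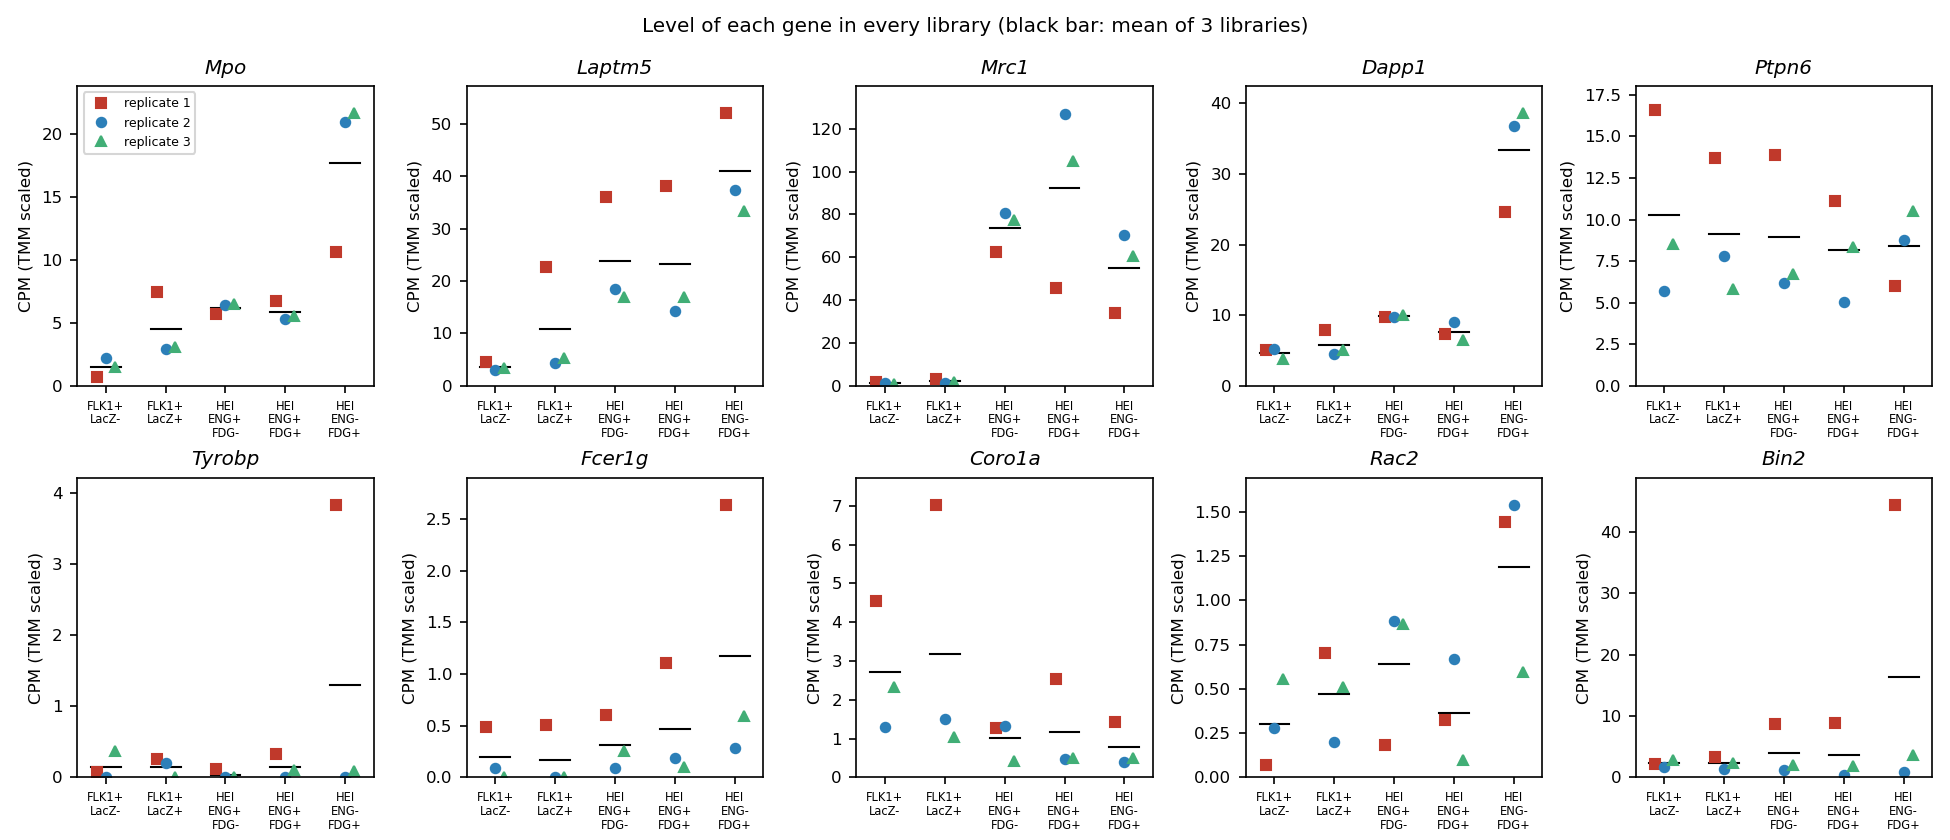
Level of each gene in every library, in CPM on a linear axis that starts at 0, for the 5 groups (squares, circles and triangles are replicates 1, 2 and 3, and the black bar is the mean of 3 libraries). Mrc1 separates the HEI groups from the FLK1+ groups, and Mpo and Dapp1 are highest in HEI ENG-FDG+ cells. The Bin2 and Tyrobp means there rest on replicate 1, which is also the highest library of Fcer1g.

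Mpo encodes myeloperoxidase, the granule enzyme with which neutrophils and monocytes make hypochlorous acid. In FLK1+ cells its level in replicates 1, 2 and 3 was 0.701, 2.22 and 1.48 CPM without the reporter and 7.47, 2.9 and 3.08 CPM with it. The HEI cells held 5.7, 6.43 and 6.49 CPM in ENG+FDG-, 6.76, 5.33 and 5.56 in ENG+FDG+, and 10.6, 20.9 and 21.6 CPM in ENG-FDG+. All 3 ENG-FDG+ libraries lay above the other 12, and the 2 ENG+ groups overlapped. Group means were 17.7 ± 6.13 (SD, n = 3) CPM in ENG-FDG+, 6.21 ± 0.441 in ENG+FDG-, 5.89 ± 0.769 in ENG+FDG+, 4.48 ± 2.59 in LacZ+ and 1.47 ± 0.757 in LacZ- cells. The mean of the HEI groups exceeded that of the FLK1+ groups by 1.75 ± 0.32 log2 (SE; edgeR adjusted p = 0.00077). The ranges overlapped, as LacZ+ replicate 1, at 7.47 CPM, lay above every ENG+FDG- and ENG+FDG+ library. In ENG+FDG+ against ENG-FDG+ cells the log2 difference of Mpo was -1.58 ± 0.46, and it did not pass the edgeR test over group means (adjusted p = 0.21). It passed with the replicate block (-1.57 ± 0.42, adjusted p = 0.0301), a fit in which 10.8% of all genes passed. DESeq2 over group means also called this difference (-1.57 ± 0.45, adjusted p = 0.0197), among 441 of 13662 genes. Against ENG+FDG- cells, ENG-FDG+ cells differed by 1.51 ± 0.46 log2 (edgeR adjusted p = 0.238), and this passed with the block (adjusted p = 0.0342), where 11.1% of all genes passed. DESeq2 called it too (1.49 ± 0.44, adjusted p = 0.0311), among 445 of 13662 genes. Part of Mpo, 512 exonic bases or 15% of its exons, overlaps the antisense gene Gm11505. Since the strand setting of the counting is not given in the sources used here, reads of the pair cannot be told apart.

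Other genes of neutrophil granules were sparse. Elane and Ctsg, the elastase and cathepsin of the same granules, had 0 counts in all 15 libraries, so Mpo was not accompanied by them at this depth. A count of 0 allows up to 3 counts in a library, which covers counting error only. Of 17 granule and lysosome genes other than Mpo and Laptm5, 8 were tested. Between the stages 4 rose and 1 fell, beside 17.0% and 20.3% of all genes tested. Lyz2, the lysozyme of macrophages, rose by 3.17 ± 0.79 log2 (edgeR adjusted p = 0.00669), and Srgn, the proteoglycan of secretory granules, by 2.10 ± 0.61 (0.0155). Ctsc, the protease that activates granule enzymes, fell by 1.78 ± 0.22 log2 (adjusted p = 3.63e-05). Lyz2 stood at 2.88, 4.62 and 5.45 CPM in ENG-FDG+ cells, and no other library exceeded 2.08 CPM.

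Laptm5 encodes a lysosomal membrane protein of blood cells that directs antigen receptors to degradation. Its level was 4.63, 2.95 and 3.34 CPM in LacZ- and 22.6, 4.4 and 5.34 CPM in LacZ+ cells. In the HEI groups it was 36, 18.5 and 17 CPM in ENG+FDG-, 38.2, 14.3 and 17 in ENG+FDG+, and 52, 37.3 and 33.3 CPM in ENG-FDG+ cells. Replicate 1 was the highest library in each of the 5 groups, and the FLK1+ and HEI ranges overlapped only through LacZ+ replicate 1. Means were 40.9 ± 9.85 CPM in ENG-FDG+, 23.8 ± 10.6 in ENG+FDG- and 23.2 ± 13.1 in ENG+FDG+ cells (SD, n = 3), against 10.8 ± 10.3 in LacZ+ and 3.64 ± 0.877 in LacZ- cells. Laptm5 rose between the stages by 2.17 ± 0.41 log2 (edgeR adjusted p = 0.00105). Its difference of -0.82 ± 0.58 log2 between ENG+FDG+ and ENG-FDG+ cells did not pass (adjusted p = 0.82). In the blocked model the value was -0.95 ± 0.27 and passed (adjusted p = 0.0401), and all 3 same-numbered pairs were lower in ENG+FDG+ cells, by log2 differences of -0.44, -1.38 and -0.96. Between ENG-FDG+ and ENG+FDG- cells Laptm5 did not pass over group means (0.78 ± 0.58 log2, edgeR adjusted p = 0.815) or with the block (0.86 ± 0.27, adjusted p = 0.0567).

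Mrc1 encodes the mannose receptor CD206, an endocytic receptor that macrophages share with sinusoidal and lymphatic endothelium. It changed more between the stages than any of the other 7 genes tested. Its level was 1.96, 1.57 and 0.927 CPM in LacZ- and 3.07, 1.2 and 1.95 CPM in LacZ+ cells. It was 62.7, 80.7 and 77.6 CPM in ENG+FDG-, 45.7, 127 and 105 in ENG+FDG+, and 34.1, 70.2 and 60.6 CPM in ENG-FDG+ cells. Every HEI library lay above every FLK1+ library, as was the case for 18.2% of all genes tested in either direction. The difference was 5.34 ± 0.35 log2 (40.4-fold, edgeR adjusted p = 2.98e-07). Inside the HEI groups the means were 92.4 ± 42 CPM (ENG+FDG+), 73.7 ± 9.61 (ENG+FDG-) and 55 ± 18.7 (ENG-FDG+), and the ranges overlapped. The difference of 0.75 ± 0.42 log2 between ENG+FDG+ and ENG-FDG+ cells did not pass (adjusted p = 0.676), and in replicates 2 and 3 alone it was 0.89 ± 0.11 (edgeR adjusted p = 7.3e-06), in a fit that called 29.3% of all genes.

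The label of these genes as leukocyte genes was checked against genes that define leukocytes and macrophages. Ptprc, which encodes the leukocyte common antigen CD45, had 0 to 6 counts in a library. Of the 15 genes of the leukocyte list it belongs to, 9 were tested. Between the stages 4 rose and 2 fell, beside 17.0% and 20.3% of all genes tested. Those that rose were Gimap4, a GTPase of lymphocytes, Arhgdib, Lcp1 and Laptm5, and those that fell were Coro1a and Spn, the sialoprotein CD43. The summed level of the 13 genes of this list other than Laptm5 and Coro1a was 42.1 to 69.2 CPM in the FLK1+ libraries and 307 to 526 CPM in the HEI libraries, of which Arhgdib made up 190 to 451 CPM. Leukocyte genes were thus mixed, with Ptprc near 0 and Arhgdib abundant. Csf1r, the receptor for the macrophage growth factor, had 1 to 13 counts. C1qa and C1qb, complement genes of macrophages, had 0 counts in all libraries, and Emr1, the macrophage antigen F4/80, had 1 count in 1 library and 0 elsewhere. Of 18 macrophage genes, 4 were tested. Between the stages 2 rose, Mrc1 and Lyz2, and 1 fell, beside the same 17.0% and 20.3% of all genes. Summed over the 17 macrophage genes other than Mrc1, the level was 15.9 to 29.7 CPM in FLK1+ libraries and 6.76 to 40.5 CPM in HEI libraries. Of the 18, 7 to 10 had 0 counts in all libraries of each FLK1+ group, and 5 to 10 in each HEI group. Cd68, a lysosomal protein abundant in macrophages, was present in every library, at 12.6 to 23.4 CPM in FLK1+ and 4 to 30.7 CPM in HEI libraries, and did not pass between the stages over group means (-0.91 ± 0.45 log2, edgeR adjusted p = 0.137), but fell with the replicate block (-1.18 ± 0.25, adjusted p = 0.000881). Csf1r, Emr1, C1qa and C1qb were at or near 0 in the libraries in which Mrc1 was high, while Cd68 was not, and Lyz2 rose as Mrc1 did. In ENG-FDG+ replicate 1, C1qc had 6 counts, Clec4n 7 and Cx3cr1 4. The part of macrophages in the Mrc1 difference was not tested.

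Of 10 genes listed for sinusoidal and lymphatic-type endothelium, Mrc1 included, 8 were tested. Between the stages 5 rose and 1 fell, beside 17.0% and 20.3% of all genes tested. Lyve1, a hyaluronan receptor of that endothelium, rose by 5.63 ± 0.46 log2 (edgeR adjusted p = 1.35e-06), from 0.0701 to 0.718 CPM in the FLK1+ libraries to 10.4 to 27.8 CPM in the HEI libraries. Stab1, a scavenger receptor, rose by 3.51 ± 0.64 log2 (adjusted p = 0.000842), and Cd36, a fatty acid transporter, fell by 3.84 ± 0.84 log2 (adjusted p = 0.00289). All 20 genes of a separate endothelial list rose as well, with a median of 3.39 log2 against -0.11 for all genes tested. The part of endothelial cells in the Mrc1 difference was not tested.

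Dapp1, also called Bam32, encodes an adaptor that binds lipid products of PI3K through its PH domain and was described in B cells. It stood at 5.12, 5.26 and 3.8 CPM in LacZ- and 7.92, 4.5 and 5.13 CPM in LacZ+ cells. In the HEI groups it was at 9.71, 9.78 and 10.1 CPM in ENG+FDG-, 7.42, 9.05 and 6.56 in ENG+FDG+, and 24.6, 36.8 and 38.7 CPM in ENG-FDG+ cells. The 3 ENG-FDG+ libraries lay above all the others, and the ENG+FDG- libraries above the ENG+FDG+ libraries. Dapp1 rose between the stages by 1.37 ± 0.20 log2 (edgeR adjusted p = 0.000123), although the LacZ+ and ENG+FDG+ ranges overlapped.

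Inside the HEI groups Dapp1 was the only 1 of the 8 genes tested that passed the edgeR test over group means. ENG+FDG+ cells, at 7.67 ± 1.26 CPM, lay 2.12 ± 0.30 log2 below ENG-FDG+ cells, at 33.4 ± 7.65 CPM (4.35-fold, adjusted p = 0.0171, lower in 3 of 3 pairs), where 0.278% of all genes passed. The call held with the replicate block (adjusted p = 0.000303) and in replicates 2 and 3 (-2.21 ± 0.18). It was lost, with adjusted p-values up to 0.147, without any 1 of the 3 ENG+FDG+ libraries or without ENG-FDG+ replicate 3, and in a fit of the 2 groups alone (adjusted p = 0.278), while the log2 difference stayed between -2.29 and -2.00. Against ENG+FDG- cells, at 9.87 ± 0.227 CPM, ENG-FDG+ cells were higher by 1.76 ± 0.30 log2 (adjusted p = 0.0346), where 0.351% of all genes passed. That call was lost without any 1 library of the comparison except ENG-FDG+ replicate 1, without a filter on low counts (adjusted p = 0.0549) and in a fit of the 2 groups alone (0.346), and held with the block (0.00086). Both comparisons use the same ENG-FDG+ libraries and so are not independent. Groups that did not overlap were found for Dapp1 and Mpo in each, 2 of 8 genes, beside 14.4% and 14.6% of all genes.

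Markers of other cell types moved in the same comparison of ENG+FDG+ with ENG-FDG+ cells. With the replicate block, edgeR called 4 of 6 erythroid genes tested, 5 of 7 megakaryocyte genes and 8 of 12 smooth muscle and mesenchyme genes lower in ENG+FDG+ cells, with 1 mesenchyme gene higher, and 12 of 20 endothelial genes higher. Over group means the calls were 0, 0, 1 and 1. Beside them, 10.8% of all genes tested passed with the block and 0.278% over group means, in either direction. The erythroid genes lower in ENG+FDG+ cells were Gata1 and the globins Hbb-bh1, Hba-x and Hbb-y, and the megakaryocyte genes included Itgb3, an integrin subunit of platelets. The summed erythroid level was 40.4 to 373 CPM in ENG-FDG+ and 12.9 to 56.3 CPM in ENG+FDG+ libraries, and the summed endothelial level 3558 to 3738 against 6215 to 8663 CPM. The part of these cell types in the differences of Dapp1, Mpo and Laptm5 was not tested.

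Among 14 genes of PI3K lipid signalling, 13 were tested. Between the stages 5 rose, Dapp1 included, and 1 fell, beside 17.0% and 20.3% of all genes. With the replicate block 9 rose and 1 fell, in a fit where 66.2% of all genes passed. Pik3cg, a PI3K catalytic subunit of leukocytes, rose by 4.03 ± 0.98 log2 (edgeR adjusted p = 0.00756) from at most 0.639 CPM in a FLK1+ library. Plek, the platelet protein pleckstrin, rose by 2.74 ± 0.39 (0.000112), and Inpp5d, the lipid phosphatase SHIP, by 2.05 ± 0.46 (0.0032). Plekha2, another PH-domain adaptor, fell by 2.21 ± 0.22 log2 (6.55e-06). Between ENG+FDG+ and ENG-FDG+ cells Dapp1 alone of the 13 passed over group means, beside 0.278% of all genes. With the block, where 10.8% of all genes passed, Plek and Grap2 were also lower and Plekha1 higher in ENG+FDG+ cells.

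**Figure D2:**
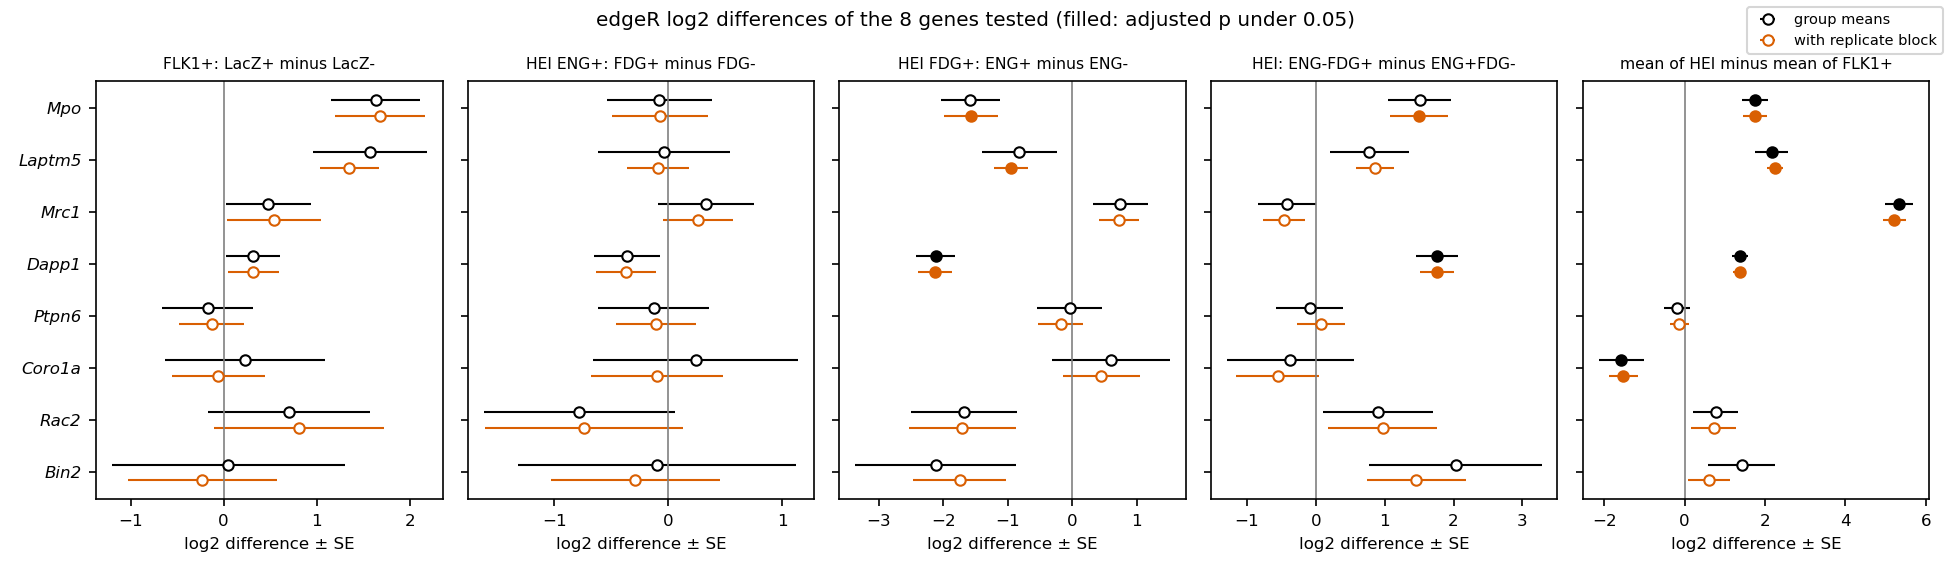
Log2 differences from edgeR (x axis, with SE bars) of the 8 genes tested in 5 comparisons, over group means (black) and with the replicate block (orange), with filled points for an adjusted p under 0.05. Dapp1 is filled in both comparisons of ENG-FDG+ with ENG+ cells, and Mpo is filled there only with the block. Laptm5 is filled with the block against ENG+FDG+ cells but not against ENG+FDG- cells. In the comparison of stages 5 genes are filled.

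Ptpn6 encodes the phosphatase SHP-1, which turns off ITAM and cytokine receptor signals. It was detected in every library, with little difference between groups: 16.6, 5.72 and 8.53 CPM in LacZ-, 13.7, 7.8 and 5.85 CPM in LacZ+, 13.9, 6.17 and 6.75 CPM in ENG+FDG-, 11.1, 5.05 and 8.35 in ENG+FDG+, and 6.02, 8.75 and 10.5 CPM in ENG-FDG+ cells. Replicate 1 was the highest library in 4 of the 5 groups and the lowest in ENG-FDG+ cells. The difference between the stages was -0.19 ± 0.32 log2 (edgeR adjusted p = 0.688), and every pair of groups overlapped. Ptpn6 shares 195 exonic bases, 6.96% of its exons, with the antisense gene Gm20531, whose reads cannot be told apart from its own.

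Tyrobp and Fcer1g encode the ITAM adaptors DAP12 and the Fc receptor gamma chain, through which activating receptors of myeloid cells signal. Both were at a few counts nearly everywhere. Tyrobp had 1, 0 and 4 counts in LacZ-, 4, 2 and 0 in LacZ+, 2, 0 and 0 in ENG+FDG-, 5, 0 and 1 in ENG+FDG+, and 45, 0 and 1 in ENG-FDG+ cells. Fcer1g had 7, 1 and 0 counts in LacZ-, 8, 0 and 0 in LacZ+, 10, 1 and 3 in ENG+FDG-, 17, 2 and 1 in ENG+FDG+, and 31, 3 and 7 in ENG-FDG+ cells. In both, the highest library was ENG-FDG+ replicate 1, and Tyrobp was at 0 or 1 count in the other ENG-FDG+ libraries. Neither was tested in the main fit. With no filter on low counts neither passed in any comparison (lowest edgeR adjusted p = 0.236, for Fcer1g between the stages). Neither can be said to differ between groups.

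Some other ITAM pathway genes were measurable. Of 21 listed beside Tyrobp, Fcer1g and Ptpn6, 10 were tested, with a median of 1.93 log2 between the stages. Among these 10, 7 rose and 1 fell, beside 17.0% and 20.3% of all genes tested. Lilrb4, an inhibitory receptor, rose by 5.29 ± 0.80 log2 (edgeR adjusted p = 0.000185). Lcp2, the adaptor SLP-76, rose by 4.65 ± 0.48 (9.12e-06), and Lyn, a Src-family kinase, rose by 3.26 ± 0.20 (1.31e-07). Vav1, an activator of Rac GTPases, rose by 2.53 ± 0.36 (0.00012). Fgr, a Src-family kinase of myeloid cells that was named after its value was seen, fell by 1.74 ± 0.57 log2 (adjusted p = 0.0294) and passed in 8 of 15 fits that each left out 1 library. Syk, the kinase that ITAMs recruit, also rose, by 1.51 ± 0.22 (0.000123), to 12.7 to 22 CPM in the HEI libraries. Thus Syk, Lyn and Lcp2 were measurable in HEI libraries in which Tyrobp and Fcer1g were at most 1.11 CPM. The exception was ENG-FDG+ replicate 1, with Tyrobp at 3.82 and Fcer1g at 2.63 CPM. Bulk libraries do not show whether the same cells held these transcripts. The receptor Trem2, a partner of Tyrobp, had 1 count in all.

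**Figure D3:**
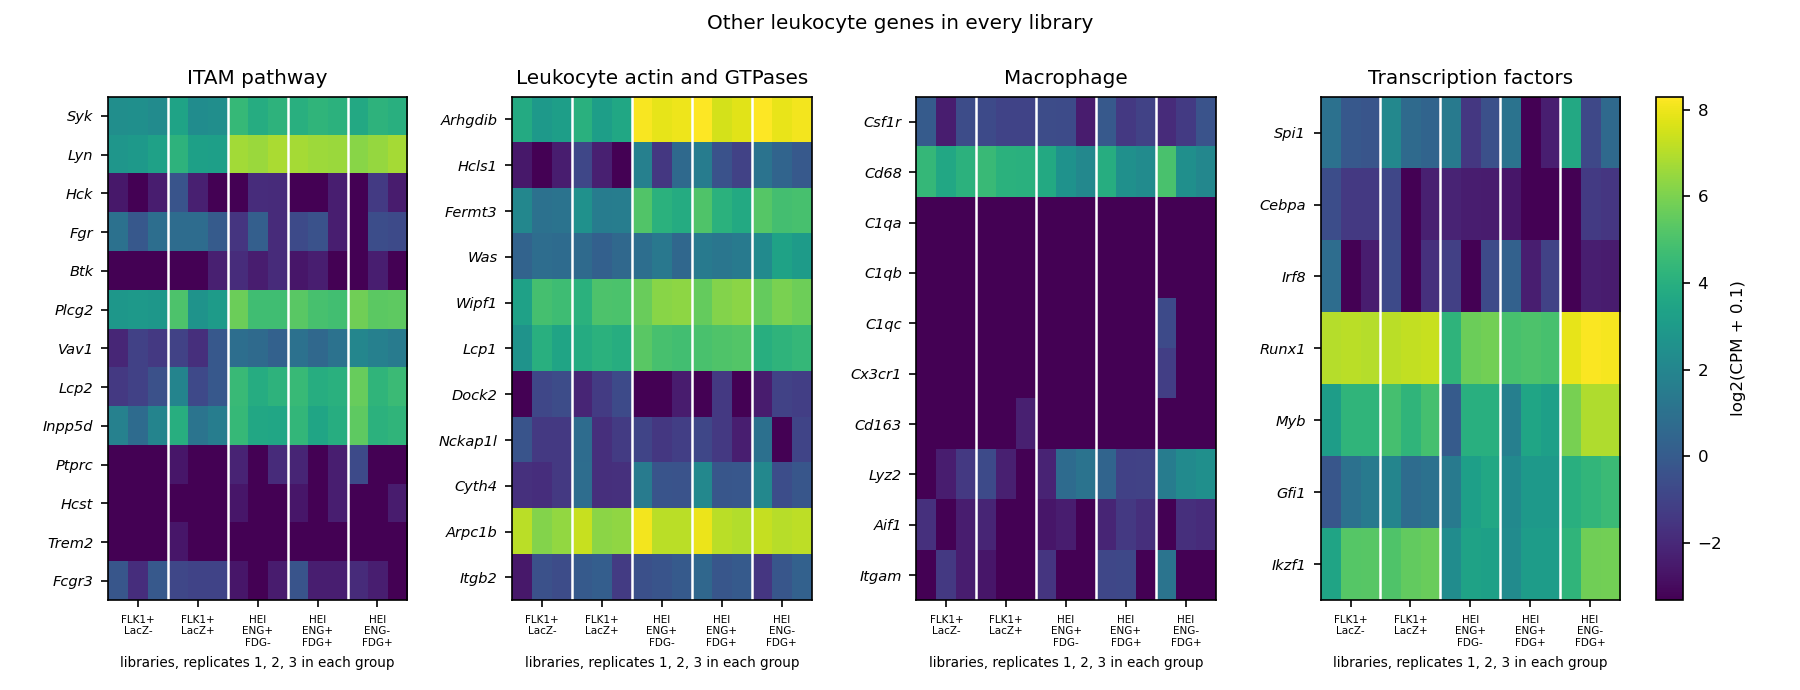
Levels of other leukocyte genes in the 15 libraries, as log2(CPM + 0.1) on a common colour scale, with the replicates of a group in order from 1 to 3 and white lines between groups. Lyn, Lcp2 and Arhgdib are brighter in HEI libraries, C1qa and C1qb are at 0 throughout, and Runx1 is brightest in ENG-FDG+ cells.

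Coro1a encodes coronin-1A, an actin-binding protein of leukocytes. It was low: 4.56, 1.29 and 2.32 CPM in LacZ-, 7.03, 1.5 and 1.03 CPM in LacZ+, 1.27, 1.32 and 0.433 CPM in ENG+FDG-, 2.54, 0.476 and 0.497 in ENG+FDG+, and 1.44, 0.385 and 0.511 CPM in ENG-FDG+ cells. It was the 1 gene of the 8 that fell between the stages, by 1.58 ± 0.56 log2 (edgeR adjusted p = 0.0416), although the ranges overlapped. The difference was -1.52 ± 0.35 with the replicate block (adjusted p = 0.00159), where 66.2% of all genes passed, and -1.28 ± 0.39 in replicates 2 and 3 (0.00659), where 73.7% did. The call was lost with no filter on low counts (adjusted p = 0.0588). It did not pass in 10 of 15 fits that each left out 1 library, and it was smallest, at -0.91, without LacZ+ replicate 1 (adjusted p = 0.206). The other libraries whose removal ended the call were LacZ- replicates 1 and 3, all 3 ENG+FDG- libraries, and replicates 2 and 3 of both ENG+FDG+ and ENG-FDG+.

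Rac2, a small GTPase of blood cells, was close to the limit of detection. Its counts were 1, 3 and 6 in LacZ-, 11, 2 and 5 in LacZ+, 3, 10 and 10 in ENG+FDG-, 5, 7 and 1 in ENG+FDG+, and 17, 16 and 7 in ENG-FDG+ cells. Its mean was highest in ENG-FDG+ cells, at 1.19 CPM, but all neighbouring groups overlapped, and no comparison passed (stage difference 0.77 ± 0.56 log2, edgeR adjusted p = 0.306).

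Bin2 encodes a membrane-bending BAR-domain protein of leukocyte podosomes. Its level was 2.24, 1.75 and 2.87 CPM in LacZ-, 3.38, 1.3 and 2.36 CPM in LacZ+, 8.74, 1.15 and 1.99 CPM in ENG+FDG-, 8.78, 0.381 and 1.89 in ENG+FDG+, and 44.3, 0.962 and 3.58 CPM in ENG-FDG+ cells. The ENG-FDG+ mean of 16.3 ± 24.3 CPM thus rests on replicate 1. The difference between the stages, 1.42 ± 0.83 log2 (edgeR adjusted p = 0.207), was -0.26 ± 0.44 in replicates 2 and 3. Between ENG+FDG+ and ENG-FDG+ cells the log2 difference was -2.12 ± 1.25 (adjusted p = 0.711) and ran from -3.83 to 0.71 when 1 library was left out.

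The library ENG-FDG+ replicate 1, in which Bin2, Tyrobp and Fcer1g were highest, also stood apart in other genes. It had reads in 13954 genes, against 15440 and 15562 in replicates 2 and 3. Spi1, which encodes the myeloid factor PU.1, had 152 counts there against 5 and 17. Cd52, a leukocyte surface antigen, had 25 counts against 0 and 0, and C1qc 6 against 0 and 0. Markers of other cell types were also high in it. The summed level of 12 smooth muscle and mesenchyme genes was 5978 CPM against 1222 and 1637, with Acta2, smooth muscle actin, at 3602 against 202 and 477 CPM. That of 10 cardiac genes was 831 CPM against 70.8 and 95.7, and that of 10 erythroid genes was 373 CPM against 40.4 and 46.1. The part of these in the levels of Bin2, Tyrobp and Fcer1g was not tested.

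Of 17 genes of the leukocyte actin and small GTPase machinery other than Coro1a, Rac2 and Bin2, 11 were tested. Between the stages 10 rose, beside 17.0% of all genes tested. Arhgdib, a GTPase inhibitor of blood cells, rose by 4.59 ± 0.26 log2 (edgeR adjusted p = 7.86e-08). Hcls1, a cortactin-like actin regulator, rose by 3.63 ± 0.82 (0.00351), and Fermt3, the integrin activator kindlin-3, rose by 2.94 ± 0.34 (2.43e-05). Was, the actin regulator mutated in Wiskott-Aldrich syndrome, was the 1 gene of this list that passed over group means between ENG-FDG+ and ENG+FDG- cells, at 2.06 ± 0.39 log2 (adjusted p = 0.0453, passing in 1 of 6 fits that each left out a library of the comparison). It stood at 4.67, 10.2 and 8.26 CPM in ENG-FDG+ and 1.76, 2.38 and 1.39 in ENG+FDG- cells. With the block Was was higher, and Lcp1 and Elmo1 lower, in ENG-FDG+ cells. In this comparison 0.351% of all genes passed over group means and 11.1% with the block.

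Most of the 10 genes belong to families with a widely expressed member, and levels per kilobase of exons allow a comparison of genes. Rac2 reached at most 0.371% of Rac1 in any library. Coro1a was 5.19% to 5.44% of Coro1c in the FLK1+ groups and 1.07% to 1.43% in the HEI groups (means over 3 libraries). Laptm5 went from 1.19% of Laptm4a in LacZ- to 13.8% in ENG-FDG+ cells, and Ptpn6 was 14.1% to 19.2% of Ptpn11 in each group. In group means Mrc1, Dapp1 and Bin2 moved past their relative. Bin2 did so only in ENG-FDG+ cells, where its mean rests on replicate 1. It was at 6.43 ± 9.6 (SD) CPM per kb there, against 5.95 ± 3.98 for Bin1, and at 10.6% to 166% of Bin1 by library. Mpo lay above Lpo, another peroxidase gene, in the mean of every group, with Lpo at most 0.351 CPM per kb. Mrc1 was 6.68% and 7.32% of Ly75, the related receptor DEC-205, in the FLK1+ groups and 369% to 920% in the HEI groups. Dapp1 was 12.9% to 17% of Plekha1, another PH-domain adaptor, in 4 groups and 122% in ENG-FDG+ cells, where Plekha1 stood at 59.7 ± 23 CPM against 127 ± 27.2 in ENG+FDG+ cells. That difference in Plekha1, 1.08 ± 0.30 log2, did not pass over group means (edgeR adjusted p = 0.183) and passed with the replicate block (1.12 ± 0.15, adjusted p = 0.00064).

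**Figure D4:**
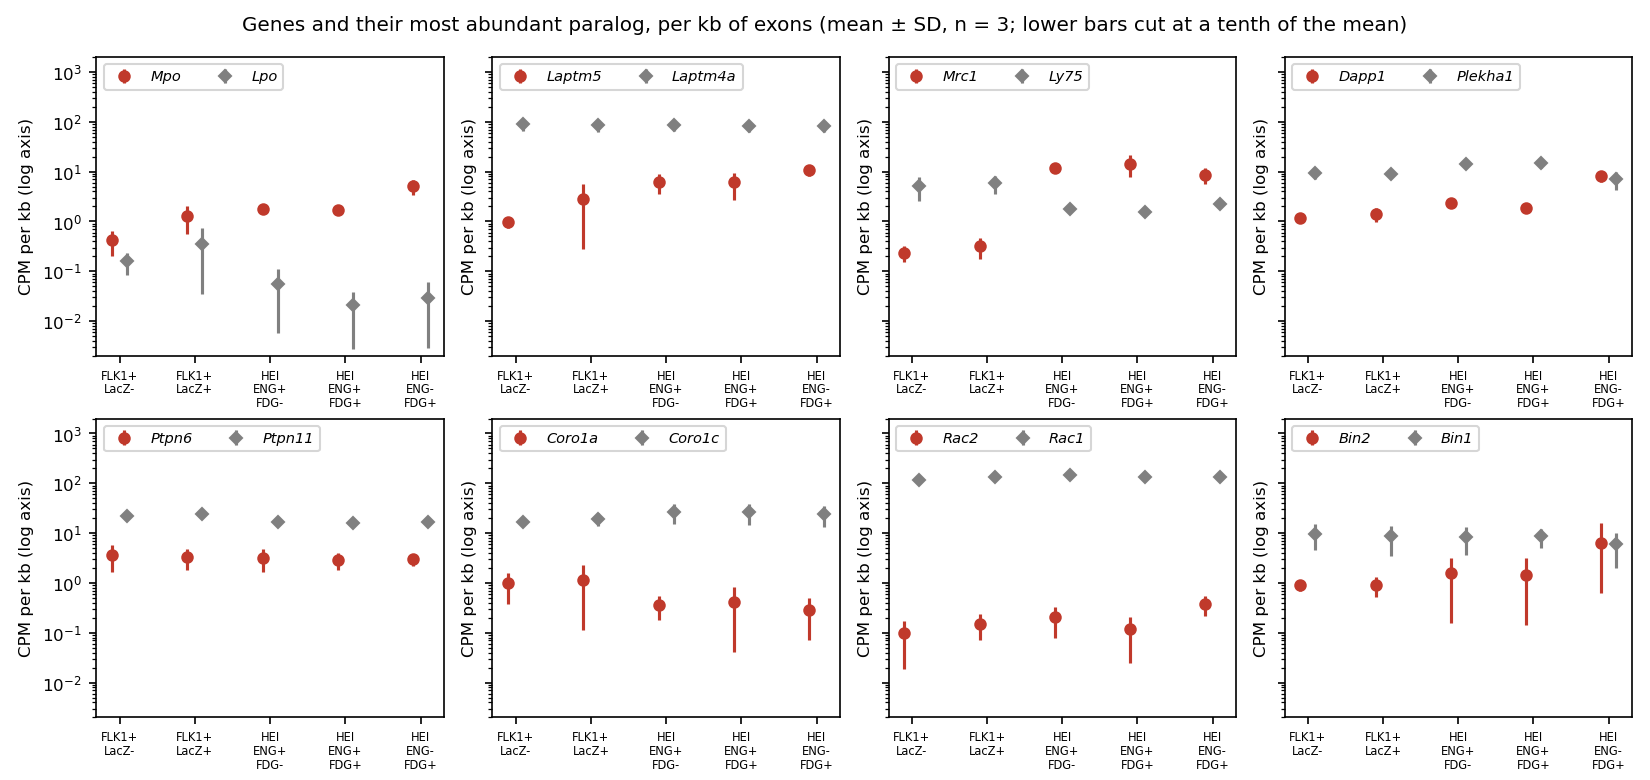
Levels per kilobase of exons (log axis, mean ± SD of 3 libraries) of the 8 genes tested (red circles) and the most abundant related gene of each (grey diamonds) in the 5 groups, with lower bars shortened where they would near or pass 0. Mrc1 lies below Ly75 in FLK1+ cells and above it in HEI cells, Dapp1 reaches Plekha1 in ENG-FDG+ cells, and Rac2 lies far below Rac1 in every group.

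The LacZ comparison in FLK1+ cells called 0 of the 8 genes and 0 genes in all (0%) with edgeR, while 170 genes had an unadjusted p under 0.05 and DESeq2 called 7. Mpo was higher in LacZ+ cells in 3 of 3 pairs (log2 differences of 3.14, 0.36 and 0.98), and its groups did not overlap, as for 4.01% of all genes. Its fitted difference was 1.63 ± 0.48 log2, with an unadjusted p of 0.00515 and an adjusted p of 1. Laptm5 was higher in 3 of 3 pairs too, at 1.57 ± 0.61 log2. Without LacZ+ replicate 1 the difference was 0.41 for Laptm5 and 1.03 for Mpo. The reporter comparison in HEI ENG+ cells likewise called 0 of the 8 genes and 0 genes in all (0%), with 39 genes at an unadjusted p under 0.05 and 0 by DESeq2. There the largest fitted differences were those of Rac2, at -0.78 ± 0.84 log2, and Dapp1, at -0.36 ± 0.29, whose groups did not overlap, as for 3.41% of all genes. In replicates 2 and 3 alone Mrc1 passed, at 0.57 ± 0.11 log2 (edgeR adjusted p = 0.0215), where 0.563% of all genes passed. Whether the reporter difference itself changed between the stages was tested as an interaction, which called 0 genes (0%), with 97 at an unadjusted p under 0.05 and 0 by DESeq2.

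Of 19 listed transcription factors of early blood cells, 15 were tested, and Runx1, required for blood formation from endothelium, was the 1 that passed over group means between ENG+FDG+ and ENG-FDG+ cells, at -3.13 ± 0.33 log2 (edgeR adjusted p = 0.00383). Its level was 234, 302 and 283 CPM in ENG-FDG+, 30.2, 33 and 30.3 in ENG+FDG+ and 18.7, 51.6 and 55.9 CPM in ENG+FDG- cells. In the FLK1+ groups it was at 128 to 159 CPM, with Mpo at 0.701 to 7.47 and Dapp1 at 3.8 to 7.92 CPM. The part of Runx1 in the differences of Mpo and Dapp1 was not tested. Spi1 was at 12.9, 0.481 and 1.45 CPM in ENG-FDG+ cells and did not pass over group means (-2.72 ± 1.38 log2, adjusted p = 0.611), but passed with the replicate block (-2.70 ± 0.73, edgeR adjusted p = 0.0309). The block called 7 of the 15 lower in ENG+FDG+ cells, Myb, Runx1, Spi1, Ikzf1, Nfe2, Gfi1b and Gfi1, and Klf4 higher. The shares of all genes that passed were 10.8% with the block and 0.278% over group means. Cebpa, a regulator of granule genes, had 0 to 8 counts in a library.

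Patterns of the 8 genes were compared across the 15 libraries after the mean of each replicate number had been subtracted, so the values describe libraries that share groups. Mpo followed Laptm5 (Pearson r = 0.95) and Dapp1 (0.88), Laptm5 followed Mrc1 (0.88), and Coro1a ran opposite to Mrc1 (-0.82). Ptpn6 was within 0.14 of 0 with Mrc1 and Laptm5. Among 12698 genes searched, those most like Mpo were Stat5a (0.98), Grap2 (0.97) and Swap70 (0.96), and those most like Dapp1 were Cap2 (0.97), Prkca (0.96) and Sytl5 (0.95). Laptm5 was most like Gclm, Iqgap2 and Etl4 (0.99 each), and Mrc1 most like Grap, Irf2 and Dpysl3 (0.99 each). For the low or replicate-driven genes the best matches were weaker at Rac2 (Rbm38, 0.88) and Ptpn6 (Ddx28, 0.88), and reached 0.94 for Coro1a (Clstn1) and 0.96 for Bin2 (Igf1r).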

How the data were processed

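Raw read counts per gene symbol, 1 column for each of 15 libraries, were deposited by the authors. Per the submitters' processing notes STAR 2.4.0, HTSeq 0.6.1 and genome mm10 were used. For the gene annotation and for the strand setting, nothing is given in the sources used here. Of 24061 lines, 27 that held a calendar date in place of a symbol (0.1529% to 0.3493% of a library's counts) were left out, and the 24034 kept gave totals of 9673396 to 16337785 counts. No 2 libraries were identical. Exonic lengths and overlaps came from the GENCODE M21 annotation of GRCm38.

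Samples were grouped by their labels. Genes were filtered with filterByExpr (13662 left), scaled with TMM factors and fitted in 1 robust quasi-likelihood model of 5 group means in edgeR 4.0.16 (R 4.3.3), tested on simulated data first. Adjusted p-values are Benjamini-Hochberg values over all genes tested, with a threshold of 0.05, and pair differences used a prior count of 2. Genes of other lists are named by size of difference among those past the threshold, up to 4 a list, and Syk, Fgr, Spi1, Cebpa, Cd52, C1qc, Acta2, the genes called only with the block and the genes of the marker checks were named outside that rule, after their values were seen. The genes and lists were chosen with earlier results of these data known. Results of some listed genes are not reported here.

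Replicate numbers of the labels were checked as pairs. Deviations from group means correlated at 0.432 to 0.867 between same-numbered libraries and at -0.764 to 0.636 between others. Every negative value involved replicate 1. FLK1+ LacZ- replicate 2 correlated at 0.639 with LacZ+ replicate 2 and at 0.634 with LacZ+ replicate 3. The numbers thus set replicate 1 apart, but the check did not pair replicates 2 and 3 by number. The biological coefficient of variation was 0.477 over group means, 0.199 with the block and 0.076 in replicates 2 and 3. Alternatives were RLE size factors, 2 other filters, fits of the compared groups alone, DESeq2 1.42.0, the replicate block and each library left out in turn.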

Additional observations from a re-analysis of the deposited data

How the results depend on the processing

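The direction and call of Mrc1, Laptm5, Mpo and Dapp1 between the stages held in every alternative run. With the replicate block, edgeR called 1482 genes between ENG+FDG+ and ENG-FDG+ cells (3 of those described), 1515 between ENG-FDG+ and ENG+FDG- cells (2) and 9039 between the stages, and the block changed no other count of calls. Replicates 2 and 3 alone, and these with the replicate block, called 8 and 32 genes for LacZ, 75 and 128 for FDG (1 of those described in each), 3899 and 4127 between ENG+FDG+ and ENG-FDG+ (4 and 4), 3605 and 3822 between ENG-FDG+ and ENG+FDG- (4 and 4), 9815 and 9883 between the stages, and 4 and 18 for the change of the reporter difference. DESeq2 called 7 genes for LacZ, 441 (2 described) and 445 (2) in the comparisons of ENG-FDG+ with ENG+FDG+ and ENG+FDG- cells. These comparisons gave 12 and 13 genes with no filter on low counts (0 described in the second), 0 and 0 when only the groups compared were fitted (0 described in each), and the first 65 with a filter at 5 CPM. Leaving out 1 library gave 0 to 1 genes for LacZ, 0 to 34 (0 to 1 described) and 0 to 43 (0 to 1) in these 2 comparisons, and 4656 to 5732 (4 to 5) between the stages. The fit of only the groups compared was not run for the stages, where it equals the model used, and Rac2 had no value in replicates 2 and 3.

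Reversed directions were limited to differences that passed no main test. With the block, in replicates 2 and 3 and in both, Coro1a had log2 differences of -0.06, -0.52 and -0.53 for LacZ and -0.10, -0.81 and -0.80 for FDG, Bin2 had -0.23, -0.35 and -0.37 for LacZ, and Ptpn6 had 0.08, 0.54 and 0.54 between ENG-FDG+ and ENG+FDG-. In replicates 2 and 3, without and with the replicate block, Ptpn6 had 0.07 and 0.06 for FDG and 0.19 and 0.19 between the stages, Bin2 had -0.26 and -0.32 between the stages, and Mrc1 had 0.26 and 0.25 in the change of the reporter difference. In that last contrast Coro1a, at 0.0011, turned to -0.0033 (RLE size factors), -0.02 with no filter, -0.05 with the block, -0.29 and -0.27 in replicates 2 and 3, and -0.01 with DESeq2. Leaving out 1 library moved Coro1a from -1.11 to 0.83 for LacZ, -1.04 to 0.60 for FDG, -0.67 to 1.41 between ENG+FDG+ and ENG-FDG+, and -1.28 to 1.34 in the last contrast. It moved Ptpn6 from -0.59 to 0.36, -0.42 to 0.34, -0.33 to 0.21, -0.30 to 0.38 (ENG-FDG+ against ENG+FDG-), -0.34 to 0.08 (stages) and -0.49 to 0.51 in the last contrast. It moved Bin2 from -0.32 to 0.33, -1.81 to 1.24, -3.83 to 0.71, -0.84 to 3.36 and, in the last contrast, -1.85 to 1.2, Laptm5 from -0.61 to 0.39 for FDG, and Mrc1 from -0.46 to 0.26 in the last contrast. The cause was not tested. At these depths Rac2, Tyrobp and Fcer1g were limited by counts.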
